A study of Mus musculus with 12 samples.

Results

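The potassium channel family described here comprises the protein-coding genes of the mouse heart count table whose symbol begins with Kcn. The rule found 94 genes among 21897 protein-coding rows. Bulk RNA sequencing covered 12 heart libraries from the inbred strain C57BL/6J, all wild type. Females and males each gave 3 libraries after exercise and 3 from sedentary animals, which makes 4 groups. Exercise was treadmill running, at a speed of 1 km/h, in sessions of 45 min on 5 days per week over 6 weeks. The age-matched sedentary mice were not taken out of their cages, and the age itself is not given in the labels. No allele, transgene or drug is named for any group. The question behind the design is what running does to heart transcripts in each sex, in mice that were also followed by electrocardiography and echocardiography. The labels do not say that every library came from its own animal. It is assumed here, and each test sets a difference between groups against the spread between libraries. If the assumption fails, that spread is in part technical.

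Potassium channels let potassium leave the cell and so bring the heart cell back to rest after each beat. In the mouse ventricle, fast repolarization rests on voltage-gated channels, among them those of the Kcnd and Kcna families. Inward rectifiers of the Kcnj family hold the resting potential, couple it to acetylcholine or link it to cell energy, and Kcnk channels carry a background leak. Auxiliary subunits, such as the Kcne, Kcnip, Kcnab and Kcnmb proteins, form no pore of their own and tune the pore-forming subunits. Of the 94 genes, 53 had enough counts to be tested and 41 did not.

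The pore of a potassium channel is lined by a short conserved stretch, the selectivity filter. Coding sequences of the GENCODE M21 transcripts (GRCm38) were read in frame for codons of threonine or serine, then valine, isoleucine, leucine or phenylalanine, glycine, tyrosine or phenylalanine, and glycine. The stretch was found once in each of the 15 inward rectifiers, the 8 channels opened by calcium, sodium or pH, the 30 voltage-gated subunits and the 10 voltage-gated subunits that are silent alone. It was found 2 times in 11 of the 14 Kcnk genes, 1 time in Kcnk6 and not at all in Kcnk1 and Kcnk7. None of the 17 auxiliary genes held it. Over all protein-coding genes scanned, 179 of 21618 (0.828%) held the stretch, against 75 of the 94 Kcn genes (79.8%). A match describes letters only, and a missing match says nothing about the channel. The 5 inward rectifiers below are shown because both inward rectifiers that differed between the sexes, Kcnj14 and Kcnj3, are among them, beside relatives of the strong rectifier branch and of the acetylcholine-gated branch. Each line is the coding strand 5′ to 3′ with the 15 bases of the stretch in capitals, from 45 bases of a single exon.
Kcnj14: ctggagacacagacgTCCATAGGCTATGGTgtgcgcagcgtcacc
Kcnj2: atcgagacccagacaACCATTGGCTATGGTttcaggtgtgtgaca
Kcnj4: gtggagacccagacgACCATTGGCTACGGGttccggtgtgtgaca
Kcnj3: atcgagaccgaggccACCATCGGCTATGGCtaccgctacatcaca
Kcnj5: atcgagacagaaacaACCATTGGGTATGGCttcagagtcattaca

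These stretches lie in coding exons at chr7:45819618-45819662 (minus strand, exon 2) for Kcnj14, chr11:111072192-111072236 (plus strand, exon 2) for Kcnj2, chr15:79485352-79485396 (minus strand, exon 2) for Kcnj4, chr2:55437612-55437656 (plus strand, exon 2) for Kcnj3 and chr9:32322544-32322588 (minus strand, exon 3) for Kcnj5. Within its strong rectifier branch, Kcnj14 differed over the 45 bases at 14 from Kcnj2 and 13 from Kcnj4. Kcnj3 and Kcnj5, whose products join into the acetylcholine-gated channel, differed from each other at 12, as many as separate Kcnj3 from Kcnj2.

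Libraries held between 22204349 and 32566240 counts. Mitochondrial rows took 27.3% of the counts in female sedentary 2 and none in the other 11 libraries. All 12 libraries carried ventricular muscle transcripts, with the 6 marker genes together at 55851 to 65292 counts scaled to library size (CPM). Summed over the 5 atrial marker genes, female exercised 2 held 303 CPM, female sedentary 1 held 202 and female sedentary 2 held 76.9, against 3.38 to 23.8 CPM in the other 9 libraries. In the same order of libraries, the 6 red cell genes summed to 293, 3630 and 1748 CPM, against 8.26 to 86.2 CPM in the other 9. The atrial marker Bmp10 was at or near 0 in every library. The 11 nerve and glia genes together ran from 13.3 to 18.5 CPM over the 12 libraries, with Th and Chat at or near 0 and Dbh at 1.26 to 3.82 CPM. The main values use all 12 libraries. The fit was repeated in the 9 libraries that held few atrial transcripts, of which a single one is from a sedentary female and is assumed to vary like the rest. That fit tested 17018 genes and 59 members and called 0 members in every comparison, and its values stand beside the calls and wherever they differ by more than 1.5 times.

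The 4 most abundant members were a leak channel, an auxiliary subunit of the transient outward current, a silent voltage-gated subunit and an ATP-sensitive pore. Levels between genes are compared as CPM per kb of exon, averaged over the 12 libraries with their SD. Kcnk3, an acid-sensitive leak channel, was highest at 63.2 ± 8.13 CPM per kb. Kcnip2, the calcium-binding subunit that brings Kcnd channels to the membrane, followed at 48.7 ± 5.44, then Kcng2, a subunit that is silent alone, at 40.5 ± 7.02. Kcnj11, the pore of the ATP-sensitive channel of heart muscle, stood at 36.6 ± 3.35. These 4 genes held 58.7% of the summed level per kb of the tested members. Their neighbours in this order overlapped over the 12 libraries, and the first gap without overlap lay between Kcnj11 and Kcnj8.

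**Figure D1:**
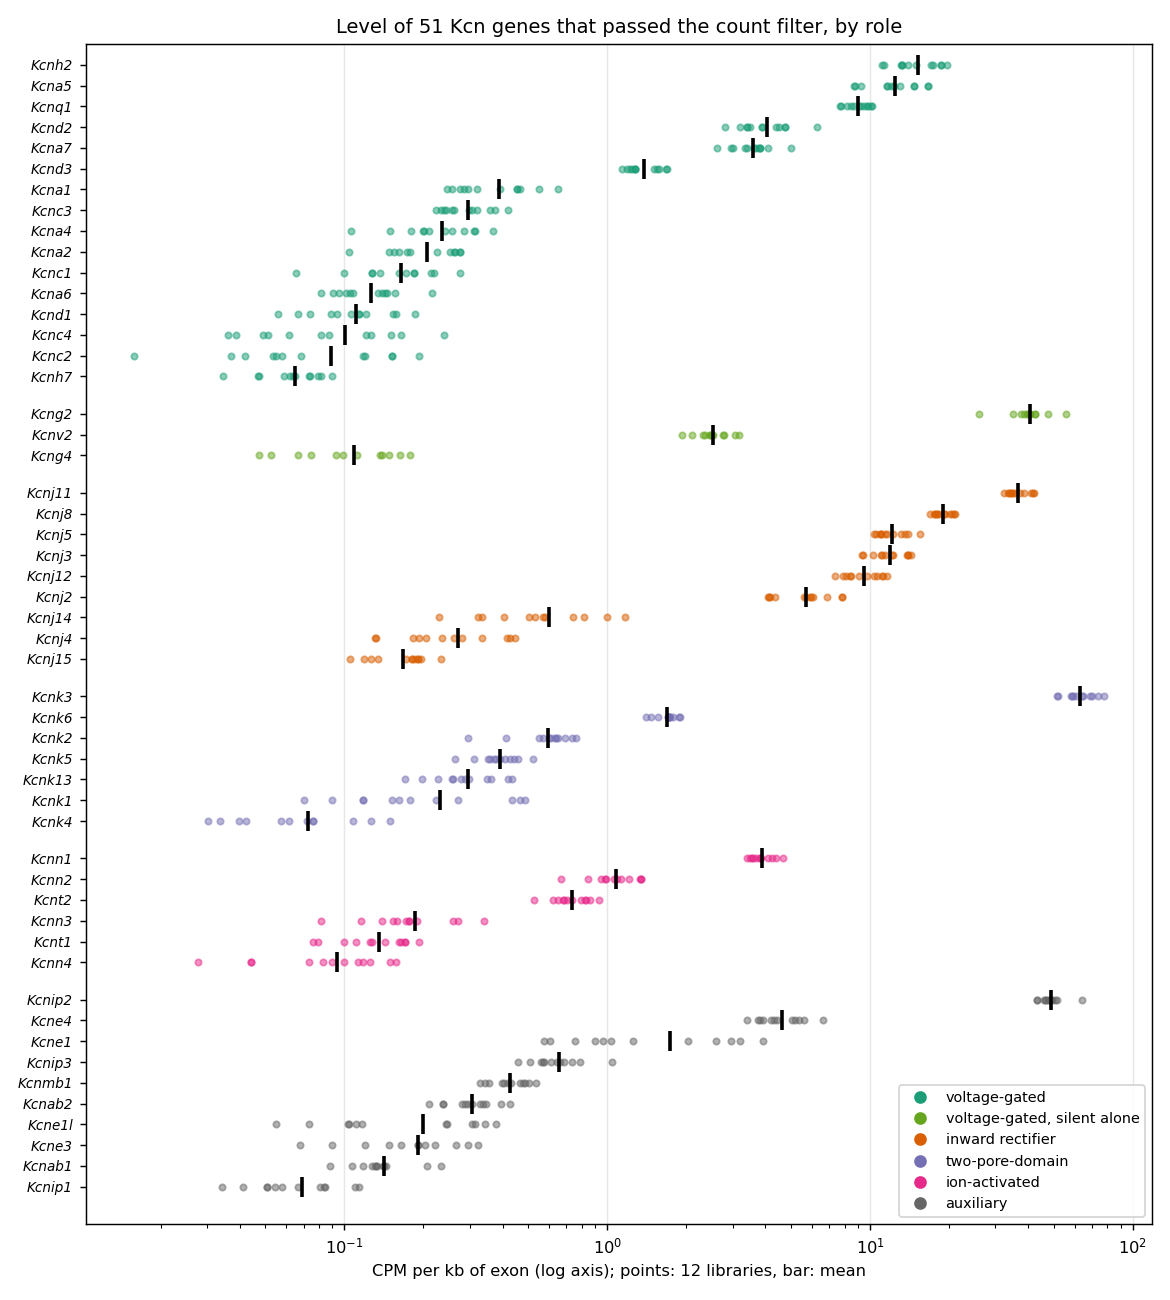
Level of 51 of the 53 tested Kcn genes in CPM per kb of exon on a log axis, grouped by role, with 1 point per library and a black bar at the mean of the 12 libraries. The 4 genes from Kcnk3 at 63.2 down to Kcnj11 at 36.6 CPM per kb lie right of all others, and the means of the ion-activated genes end at 3.88 CPM per kb.

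Inward rectifiers gave the largest share of the summed level, 29.8%, from 9 tested genes of 15. Kcnj8, the ATP-sensitive pore of vascular smooth muscle, stood at 18.9 ± 1.42 CPM per kb. Kcnj5 and Kcnj3, the pair of the acetylcholine-gated channel, were level with each other at 12.1 ± 1.59 and 11.9 ± 1.78. The strong rectifiers that hold the resting potential were ordered Kcnj12 at 9.50 ± 1.46, Kcnj2 at 5.71 ± 1.35, Kcnj14 at 0.60 ± 0.28 and Kcnj4 at 0.27 ± 0.11 CPM per kb. Kcnj12 and Kcnj2 each stood above Kcnj14 in all 12 libraries. The range over the tested inward rectifiers ran from 0.168 CPM per kb for Kcnj15 to 36.6 for Kcnj11.

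Voltage-gated subunits had 18 tested genes of 30 and 16.6% of the summed level. Kcnh2, which carries the rapid delayed rectifier, led at 15.2 ± 2.97 CPM per kb. Kcna5, of the ultrarapid delayed rectifier, stood at 12.5 ± 2.76 and Kcnq1, of the slow delayed rectifier, at 9.03 ± 0.87. Kcna7 was at 3.6 ± 0.61. Kcnd2, the fast transient outward pore, was at 4.06 ± 0.94 and Kcnd3, its relative, at 1.38 ± 0.20 CPM per kb. Kcna4, of the slow transient outward current, stood at 0.23 ± 0.08. Kcna1, Kcna2, Kcnd1 and Kcnc4 were at 0.39 ± 0.13, 0.21 ± 0.06, 0.11 ± 0.04 and 0.10 ± 0.06. Of the silent subunits, 3 of 10 were tested, Kcng2, Kcnv2 at 2.53 ± 0.36 and Kcng4 at 0.109 CPM per kb.

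Kcnk genes had 7 tested members of 14 and held 20.6% of the summed level, nearly all from Kcnk3. Kcnk6 was at 1.69 ± 0.14 CPM per kb, Kcnk2, a stretch-sensitive channel, at 0.60 ± 0.13, Kcnk5 at 0.39 ± 0.07, Kcnk13 at 0.29 ± 0.08 and Kcnk1 at 0.23 ± 0.15. Channels opened by calcium or sodium had 6 tested members of 8 and 1.90% of the summed level. Among the small-conductance calcium-activated channels, Kcnn1 stood at 3.88 ± 0.39, Kcnn2 at 1.08 ± 0.21 and Kcnn3 at 0.19 ± 0.07, with the intermediate-conductance Kcnn4 at 0.09 ± 0.04. Kcnma1, the large-conductance pore, had 0 to 12 counts per library and was not tested, while Kcnmb1, its smooth muscle subunit, was at 0.43 ± 0.07 CPM per kb. Of the other auxiliary subunits, Kcne4 stood at 4.64 ± 0.95, Kcne1 at 1.73 ± 1.16, Kcnab2 at 0.31 ± 0.06, Kcne3 at 0.19 ± 0.08 and Kcnab1 at 0.14 ± 0.04. Kcne1 spread widely beside its mean.

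The 41 genes that were not tested had few or no counts in these hearts. They were 12 voltage-gated, 7 silent, 6 inward rectifier, 7 Kcnk, 2 ion-activated and 7 auxiliary genes. Kcna10, Kcnh5, Kcnk15 and Kcnk16 had a count of 0 in all 12 libraries. Kcne2, an auxiliary subunit of Kcnh2, had 0 to 2 counts per library, and Kcnmb4 was also below the filter. Near the filter, Kcnrg had 99 counts over the 12 libraries and was left out, while Kcne1l with 90 and Kcnk4 with 96 were kept. Beside a low total, the filter asks for enough counts relative to library size in a group's worth of libraries. Kcnrg had its highest counts, 10, 12 and 15, in female sedentary 2, male sedentary 1 and male sedentary 2. The library size used for female sedentary 2 included its mitochondrial counts, 27.3% of the total, which lowers the scaled value there.

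The sexes differed in 3 members: Kcne1 was higher in females, and Kcnj14 and Kcnj3 were lower. Kcne1 encodes the small subunit that slows Kcnq1 to give the slow delayed rectifier, Kcnj14 is a strong inward rectifier, and Kcnj3 is a pore of the acetylcholine-gated channel. They passed the quasi-likelihood test of edgeR (adjusted over 16213 genes by Benjamini-Hochberg, threshold 0.05) for females against males averaged over conditions. These were 3 of 53 tested members, against 818 genes in all (5.05%). The share of members is close to that of all genes. At an unadjusted p of 0.05 the counts were 13 of 53 members and 21.2% of all genes.

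Kcne1 (ENSMUSG00000039639.7, chr16:92345982-92359468, minus strand) stood at 12.6, 8.32 and 4.03 CPM in exercised females and 6.52, 10.3 and 9.50 in sedentary females. It stood at 3.34, 1.85 and 2.43 CPM in exercised males and 3.09, 1.95 and 2.88 in sedentary males. All 6 female libraries were above all 6 male libraries, and exercised females spread most. The female level was 3.29-fold the male level averaged over conditions, a log2 difference of 1.72 ± 0.27 (SE; edgeR adjusted p = 0.00661). Kcne1 was the only tested member whose female and male libraries did not overlap over all 12, against 3.45% of all genes. In the 9 libraries with few atrial transcripts the log2 difference was 1.77 and the adjusted p 0.0748, so the difference was as large but missed the test. The conduction system includes cells known to express Kcne1. Its summed markers ran from 24.0 to 37.6 CPM in females and from 26.1 to 42.5 in males. Among these markers, Tbx3 was at 12.3 to 22.1 CPM over the 12 libraries. Cntn2 ran from 0.486 to 9.49 CPM in females and from 1.31 to 5.28 in males. Whether the share of such cells bears on the Kcne1 difference was not tested. In bulk tissue, fewer cells of a type and less RNA per cell cannot be told apart.

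Kcnj14 (ENSMUSG00000058743.6, chr7:45816460-45824782, minus strand) stood at 0.624, 0.880 and 0.904 CPM in exercised females and 1.54, 1.10 and 1.37 in sedentary females. It stood at 2.01, 1.44 and 1.58 CPM in exercised males and 2.23, 2.71 and 3.17 in sedentary males. Within each condition every male library was above every female library, while sedentary females overlapped exercised males. Males were 2.04-fold higher averaged over conditions, a log2 difference of -1.03 ± 0.18 for females minus males (edgeR adjusted p = 0.00655). The gene rests on 15 to 67 counts per library. In the 9 libraries the difference was -1.05 with an adjusted p of 0.0752.

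Kcnj3 (ENSMUSG00000026824.11, chr2:55435970-55598145, plus strand) stood at 57.4, 63.9 and 59.3 CPM in exercised females and 49.2, 53.5 and 48.6 in sedentary females. It stood at 74.7, 63.1 and 57.9 CPM in exercised males and 72.6, 71.9 and 72.6 in sedentary males. The sedentary groups lay far apart, and the exercised groups overlapped. Averaged over conditions the log2 difference was -0.32 ± 0.06 (edgeR adjusted p = 0.00994), and -0.37 with an adjusted p of 0.0709 in the 9 libraries. Exons of Kcnj3 share 1621 bases with the opposite-strand lincRNA Gm26794, and because the strand setting of the counting is not given in the sources used here, reads of both cannot be told apart.

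**Figure D2:**
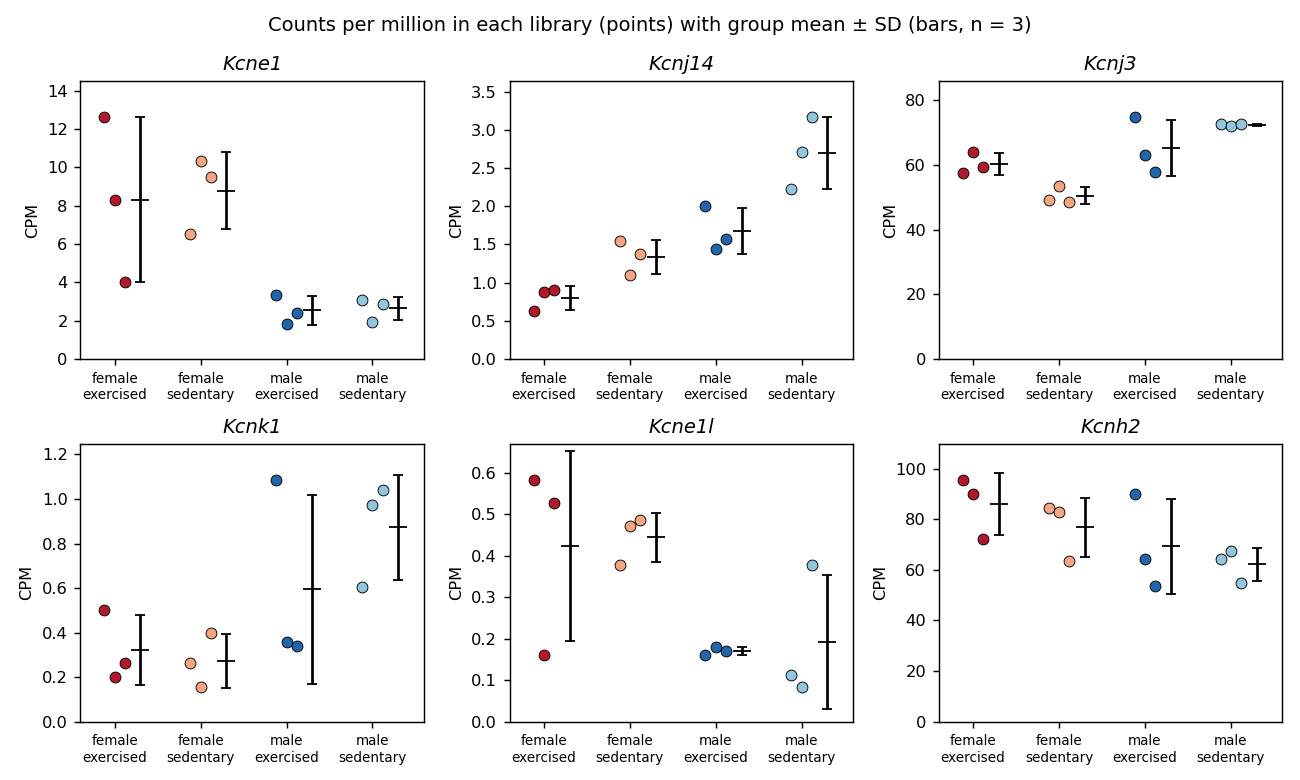
CPM of Kcne1, Kcnj14, Kcnj3, Kcnk1, Kcne1l and Kcnh2 in each library (points) by group, with the group mean ± SD beside them (n = 3). Kcne1 lies between 4.03 and 12.6 CPM in females and between 1.85 and 3.34 in males, and the sedentary groups of Kcnj3 are separated, at 48.6 to 53.5 against 71.9 to 72.6 CPM.

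The same members were the ones called in sedentary hearts alone, where 358 of 16213 genes (2.21%) passed. Kcnj3 was lower in females by -0.52 ± 0.09 on the log2 scale (edgeR adjusted p = 0.00875). Kcne1 differed by 1.73 ± 0.38 (edgeR adjusted p = 0.0457) and Kcnj14 by -1.01 ± 0.24 (edgeR adjusted p = 0.0487). The last 2 calls sit at the threshold: over the fits that left out 1 library the adjusted p ran from 0.00945 to 0.172 for Kcne1, which passed in 3 of 12, and from 0.0456 to 0.206 for Kcnj14, which passed in 1 of 12. Kcnj3 was the only member called in 9 of these 12 fits, and only those without female exercised 1, female exercised 3 or male exercised 2 called another. None of the 3 passed in the 9 libraries, where Kcnj3 was at -0.58 (adjusted p = 0.166), Kcne1 at 1.84 (0.303) and Kcnj14 at -0.97 (0.381). At an unadjusted p of 0.05, 7 members passed against 18.4% of all genes. The libraries of the sexes did not overlap for 10 of 53 members, against 25.0% of all genes.

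In exercised hearts no member passed, against 26 genes in all (0.16%), and 6 passed at an unadjusted p of 0.05 against 9.84% of all genes. Kcne1 differed by 1.70 ± 0.38 (edgeR adjusted p = 0.152) and Kcnj14 by -1.06 ± 0.26 (edgeR adjusted p = 0.171), both close to their sedentary values. Over the fits that left out 1 library, the Kcne1 difference ran from 1.27 to 2.04 and its edgeR adjusted p from 0.00982 to 0.384. Kcne1 passed in 1 of these 12 fits, the one without female exercised 3, which had the lowest female Kcne1. DESeq2 gave an adjusted p of 0.000669 for Kcne1 with all libraries. Kcnj3 differed by -0.12 (edgeR adjusted p = 0.705), by -0.0051 without male exercised 1 and by -0.19 without male exercised 3. The other members of smallest p were Kcnk2 at -0.69 ± 0.23, Kcnk3 at -0.30 ± 0.12 and Kcna4 at 0.77 ± 0.33, with edgeR adjusted p of 0.313, 0.426 and 0.457. Without female exercised 3 the Kcnk2 value was -1.04. Exons of Kcnk2 share 604 bases with the opposite-strand A430027H14Rik. Libraries of the sexes did not overlap for 8 of 53 members, against 14.3% of all genes.

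Another 10 members had an unadjusted p under 0.05 for sex averaged over conditions without passing the adjusted test. Kcnk1, a weakly conducting leak channel, had a log2 difference of -1.28 ± 0.38 (edgeR adjusted p = 0.0669) from 4 to 27 counts per library. It stood at 0.157 to 0.50 CPM in females and 0.341 to 1.09 in males, and its exons share 179 bases with the opposite-strand Gm45875. DESeq2 called it (adjusted p = 0.0423), as did edgeR's bias-adjusted fit without a filter (adjusted p = 0.0485). These were 2 of 18 alternative fits. Of the 12 that left out 1 library, 0 called it, with an edgeR adjusted p of 0.0559 to 0.179. In the 9 libraries the Kcnk1 value was -0.89. In sedentary hearts alone it was at -1.66 ± 0.54 (edgeR adjusted p = 0.122). Kcne1l, the X-linked relative of Kcne1, had a difference of 1.26 ± 0.42 (edgeR adjusted p = 0.0971) from 2 to 14 counts per library. Kcnh2 stood at 86.0 ± 12.1 and 76.8 ± 11.7 CPM in exercised and sedentary females, and at 69.2 ± 18.6 and 62.1 ± 6.43 in the corresponding males (SD, n = 3 each). Its difference was 0.31 ± 0.13 (edgeR adjusted p = 0.204). Kcnk3, the most abundant member, was at -0.19 ± 0.08 (edgeR adjusted p = 0.206). Among the remaining, Kcnn3 and Kcnt2 were at 0.65 ± 0.25 and 0.26 ± 0.12, and Kcna2, Kcnk2 and Kcnd3 at -0.53 ± 0.20, -0.41 ± 0.16 and -0.23 ± 0.09. Without female exercised 3 the Kcnn3 value was 0.41. In the 9 libraries Kcna2 was at -0.88, Kcnk3 at -0.34 and Kcnh2 at 0.15, with adjusted p of 0.0782, 0.126 and 0.754. Leaving out 1 library brought 3 of these past the test, each in 1 of 12 fits. Kcna2 was at -0.75 without female sedentary 1 (edgeR adjusted p = 0.0345). Kcnk2 was at -0.58 without female exercised 3 (0.0301), and Kcnh2 at 0.43 without male exercised 1 (0.035). Over the 12 fits their edgeR adjusted p reached 0.289, 0.304 and 0.361.

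By role, the sex difference averaged over conditions was above 0 for all 10 tested auxiliary genes, with a median log2 difference of 0.16 and 1 call, Kcne1. In sedentary hearts alone 7 of these 10 were above 0, and in exercised hearts 9. Averaged over conditions, the difference was below 0 for 7 of 9 inward rectifiers, with a median of -0.08 and 2 calls. Voltage-gated genes had 8 above and 10 below 0, Kcnk genes 4 and 3, ion-activated genes 3 and 3, and silent subunits 2 and 1, with no call. Over all 53 the median was 0.02, against 0.01 over all 16213 genes, and 29 members were above 0, against 8560 of all genes.

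**Figure D3:**
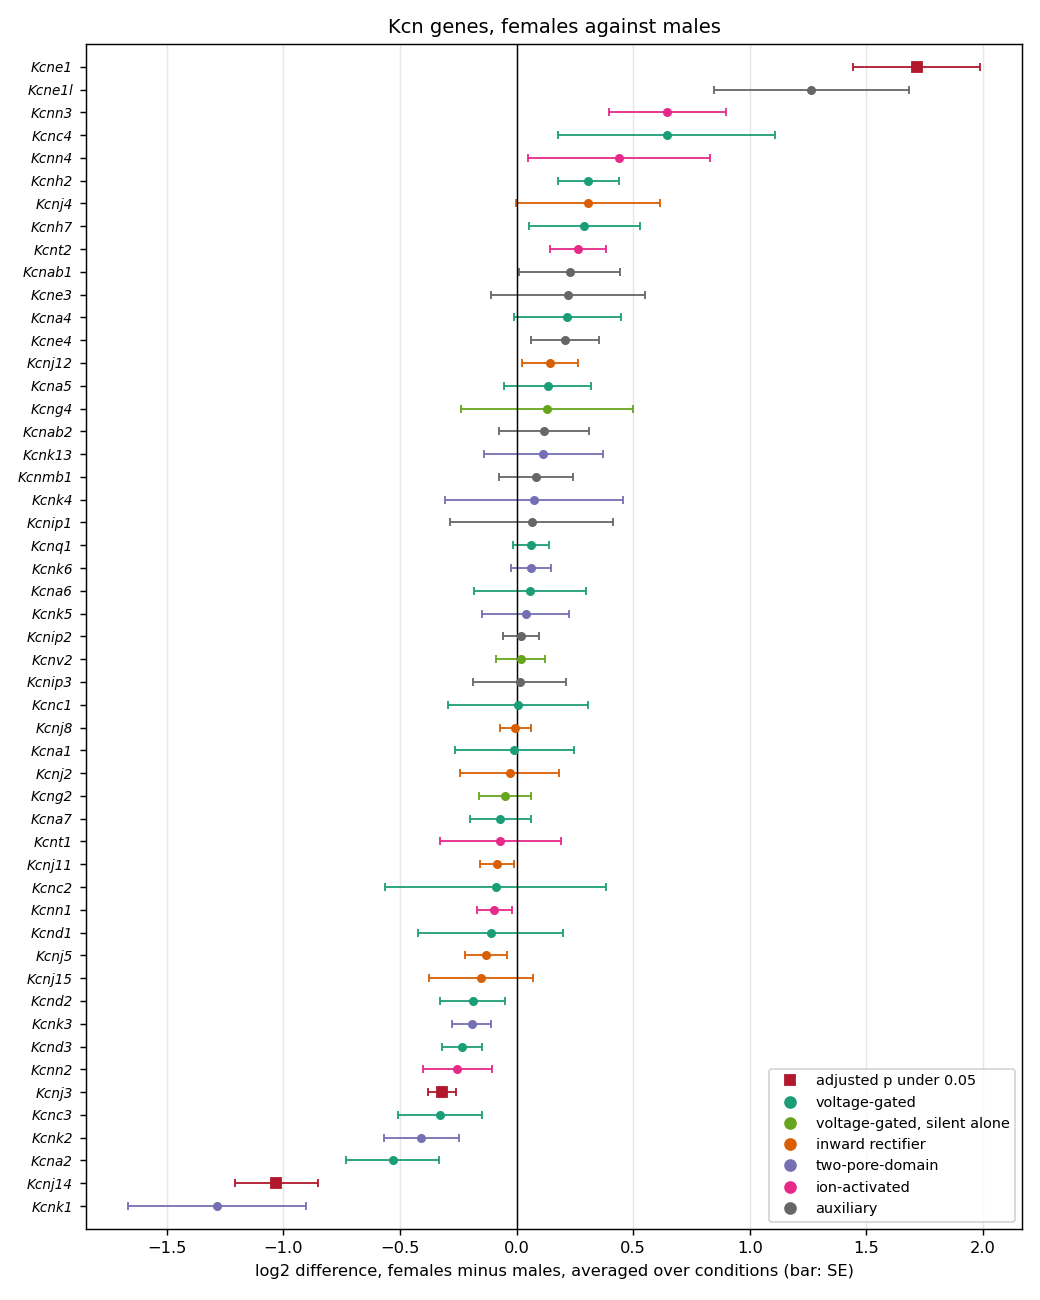
Log2 difference of females minus males averaged over conditions for 51 of the 53 tested Kcn genes, with SE bars, coloured by role, and red squares for genes with an adjusted p under 0.05. Kcne1 lies at 1.72, Kcnj3 at -0.32 and Kcnj14 at -1.03. Kcnk1 at -1.28 and Kcne1l at 1.26 did not pass but lie further from 0 than Kcnj14 and Kcnj3, and most remaining genes lie nearer 0.

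By edgeR, exercise gave no call among the members in either sex, and none among all genes. In females, 0 of 53 members and 0.0% of 16213 genes passed the same test. At an unadjusted p of 0.05, 4 members passed against 3.93% of all genes. In males, 0 of 53 members and 0.0% of all genes passed, with 3 members at an unadjusted p of 0.05 against 7.84% of all genes. Averaged over sexes the counts were 0 members and 0.0% of genes, with 3 members at an unadjusted p of 0.05 against 6.28%. DESeq2 called 1, 16 and 11 genes in these 3 comparisons, and 0 members. The median SE of a member's log2 difference was 0.27 in each sex, against 0.14 over all genes, so that small changes of most members were not detectable at this depth and number of libraries.

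Kcnj14 had the smallest unadjusted p among the members for exercise averaged over sexes. It was at -0.73 ± 0.27 in females and -0.68 ± 0.24 in males, and -0.71 ± 0.18 averaged (unadjusted p = 0.00146 and adjusted p = 0.782 by edgeR). In each sex the 3 exercised libraries lay below the 3 sedentary ones. Leaving out each library in turn, the averaged value ran from -0.78 to -0.63. Libraries of the exercised and sedentary groups did not overlap for 8 of 53 members in females, against 9.79% of all genes, and for 4 of 53 in males, against 12.3%. Kcnj14 was the only member in both sets and had the same direction in both. The share of all genes that fell in both sets was not counted, so this has no background to stand against.

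Kcne3, a small auxiliary subunit, had an averaged exercise difference of -0.89 ± 0.33 (edgeR adjusted p = 0.782) from 3 to 14 counts per library, and -1.05 ± 0.45 in females (edgeR adjusted p = 1.0). Kcnj4, a strong rectifier, was at 0.69 ± 0.31 averaged from 6 to 24 counts per library. Kcnk4, a mechanosensitive leak channel with 3 to 16 counts per library, was at 1.27 ± 0.51 in females, and 587 of its exon bases are shared with Catsperz on the same strand. Kcnv2, a silent subunit, was at 0.30 ± 0.15 in females, where its exercised libraries at 14.2, 12.9 and 16.2 CPM lay above the sedentary ones at 12.5, 10.7 and 11.8. Kcng2 was at 0.44 ± 0.16 in males (edgeR adjusted p = 0.615), from 143, 166 and 120 CPM in exercised and 116, 122 and 77.9 in sedentary males. Without male sedentary 3, which had the lowest Kcng2, that value was 0.26. Averaged over sexes Kcng2 was at 0.20 ± 0.11, and at 0.11 without the same library. Kcnc2, averaged over sexes, was at 0.86 ± 0.48 from 3 to 33 counts per library, and at 1.38 without male sedentary 3.

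By role, the medians of the exercise differences lay near 0, over members that went both ways, from -1.05 for Kcne3 to 1.27 for Kcnk4 in females and from -0.95 for Kcna4 to 0.63 for Kcnj4 in males. In females the medians were 0.14 for voltage-gated genes, 0.04 for inward rectifiers, 0.16 for Kcnk genes, -0.11 for ion-activated channels, -0.05 for silent subunits and 0.09 for auxiliary genes, with 31 of 53 members above 0. In males they were 0.02, -0.04, 0.06, 0.08, -0.03 and -0.02 in the same order, with 29 of 53 above 0. The median over all genes was 0.00 in both sexes. The ATP-sensitive pores showed how close the groups lay. Kcnj11 was at 129 ± 8.80 and 133 ± 15.1 CPM in exercised and sedentary females and at 137 ± 15.4 and 141 ± 13.4 in the males, and Kcnj8 at 48.0 ± 4.38, 48.3 ± 3.37, 49.6 ± 5.70 and 47.0 ± 1.95 in the same order (SD, n = 3 each). Kcnq1 likewise stood at 37.7 ± 5.18, 37.8 ± 3.52, 37.8 ± 2.22 and 34.6 ± 3.81 CPM. All groups of these 3 genes overlapped.

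**Figure D4:**
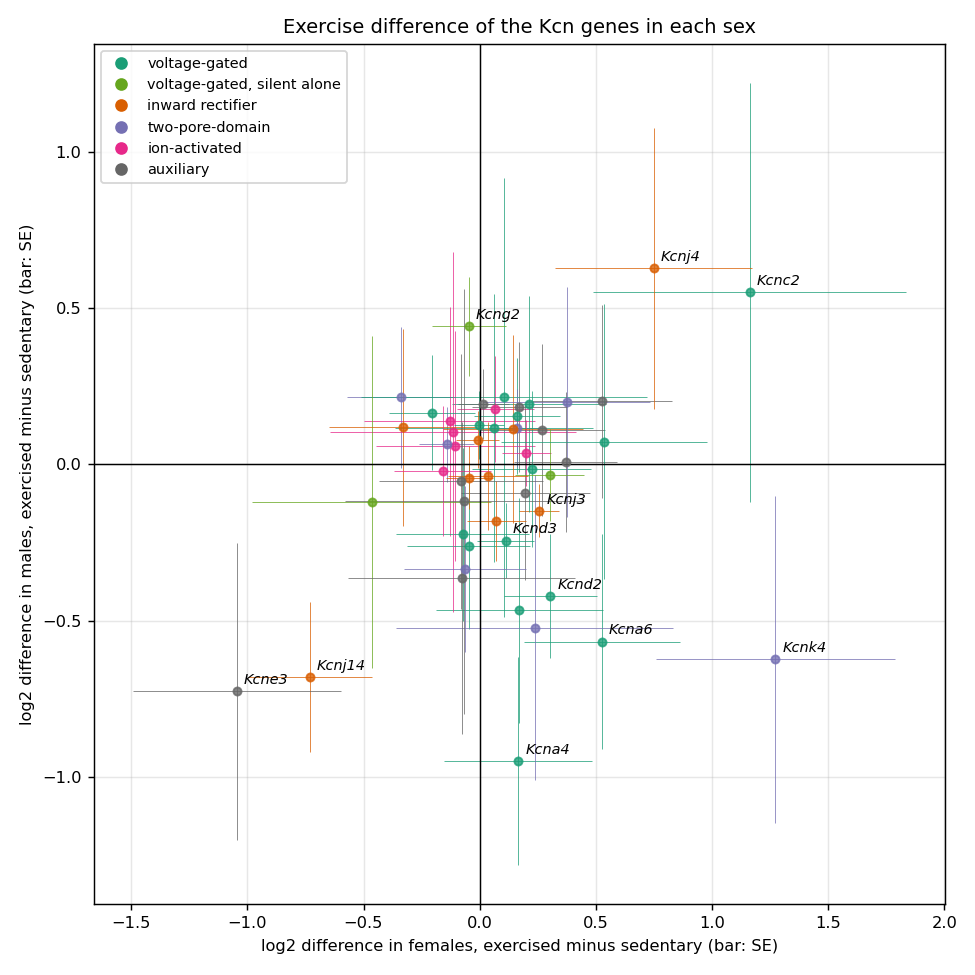
Log2 difference of exercised minus sedentary hearts in females (x axis) and males (y axis) for 51 of the 53 tested Kcn genes, with SE bars and coloured by role. Kcnj14 lies at -0.73 and -0.68 and Kcnj3 at 0.26 and -0.15, and no gene passed the adjusted test in either sex.

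The difference of the exercise effects between the sexes gave no call among members or among all genes (0.0%), and 5 members had an unadjusted p under 0.05 against 4.74% of all genes. All 5 were on the side of a more positive value in females. For Kcnj3 the exercise difference was 0.26 ± 0.09 in females and -0.15 ± 0.08 in males, and their difference 0.40 ± 0.12 (unadjusted p = 0.00458, edgeR adjusted p = 0.93). This comparison shares the sedentary libraries with the sex comparison of Kcnj3 above. Without male exercised 1 or male exercised 3 the male value moved by more than 1.5 times, within -0.26 to -0.07, and the difference between the sexes ran from 0.33 to 0.51 over all libraries left out in turn.

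The other 4 were 3 voltage-gated genes and a leak channel. Kcnd2 stood at 22.5, 17.6 and 24.6 CPM in exercised and 17.9, 14.5 and 20.0 in sedentary females, against 23.2, 16.5 and 17.5 in exercised and 20.0, 32.4 and 24.4 in sedentary males. The groups overlapped in each sex. Its exercise difference was 0.30 ± 0.20 in females and -0.42 ± 0.20 in males, 0.73 ± 0.28 apart (edgeR adjusted p = 0.93). Without male sedentary 2, which held the highest Kcnd2, the male value was -0.22. Without female exercised 3 or female sedentary 2 the female value moved by more than 1.5 times, within 0.18 to 0.43.

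Kcnd3 had the same signs but missed the unadjusted threshold, at 0.11 ± 0.12 in females and -0.24 ± 0.12 in males, 0.36 ± 0.17 apart (edgeR adjusted p = 0.93). Without female exercised 1 the difference between the sexes was 0.23, and the female value -0.02. In the 9 libraries the female value was 0.28. In sedentary hearts Kcnd2 was at -0.55 ± 0.20 and Kcnd3 at -0.41 ± 0.12 for females minus males (edgeR adjusted p = 0.171 and 0.0924), and DESeq2 called Kcnd3 there with an adjusted p of 0.0428. The Kcnd2 value there was -0.34 without male sedentary 2 and -0.36 in the 9 libraries. Kcnip2, their calcium-binding subunit, was at 171 ± 7.11 and 169 ± 7.84 CPM in exercised and sedentary females and 180 ± 37.7 and 157 ± 6.68 in the corresponding males (SD, n = 3 each).

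Kcna4 stood at 1.37, 1.24 and 1.17 CPM in exercised and 1.02, 0.864 and 1.5 in sedentary females, against 0.965, 0.720 and 0.511 in exercised and 1.77, 0.973 and 1.51 in sedentary males. In males the exercised libraries lay below the sedentary ones, by a narrow gap, and in females they overlapped. Its exercise difference was 0.16 ± 0.32 in females and -0.95 ± 0.33 in males (edgeR adjusted p = 0.615), 1.11 ± 0.46 apart. The female value ran from 0.0069 to 0.42 over the libraries left out in turn, moved by more than 1.5 times without female exercised 1 or any of the sedentary females, and was -0.24 in the 9 libraries, where the sexes were 0.71 apart. Kcna6 and Kcnk4 were 1.09 ± 0.48 and 1.90 ± 0.73 apart, from 11 to 34 and 3 to 16 counts per library. Exons of Kcna6 share 2355 bases with the opposite-strand Gm26673, whose reads cannot be told apart without the strand setting. Kcng2 lay on the other side, at -0.05 ± 0.16 in females and -0.49 ± 0.23 for the difference between the sexes, which was -0.31 without male sedentary 3. In the 9 libraries its female value was -0.0062.

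**Figure D5:**
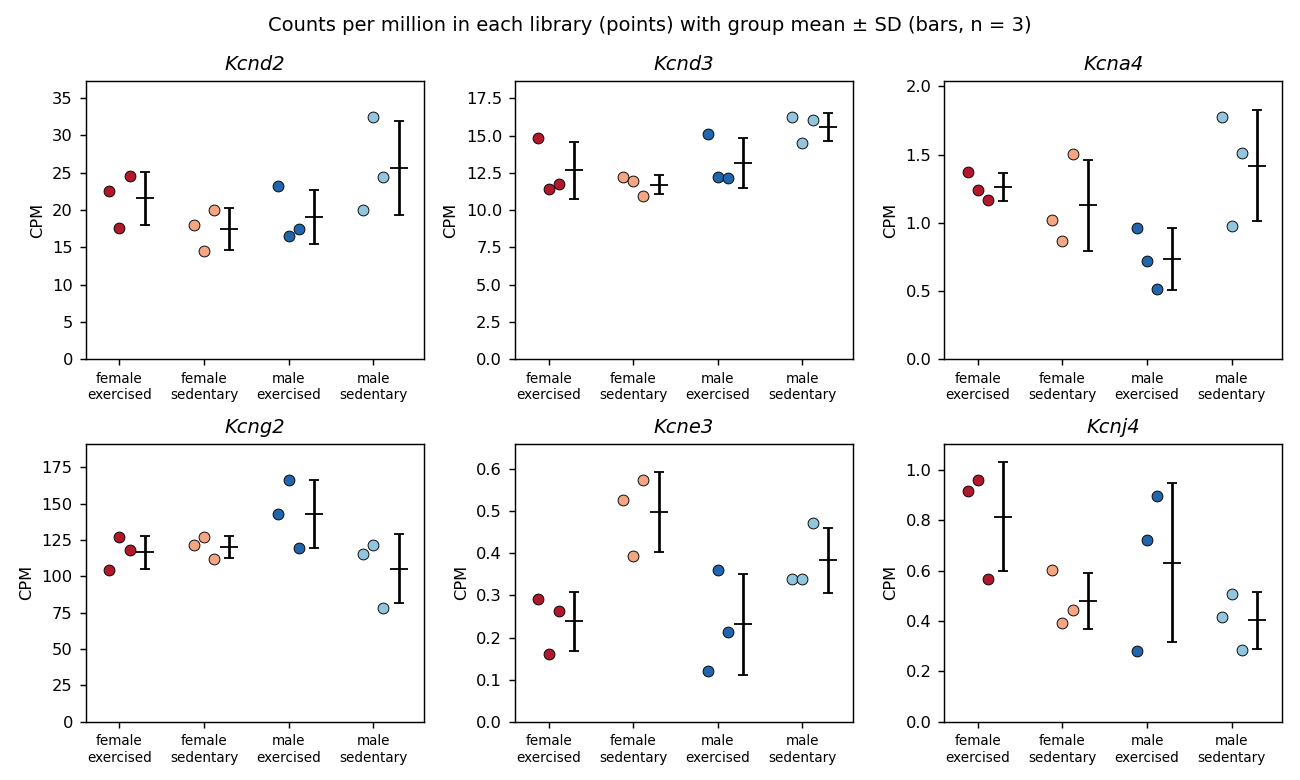
CPM of Kcnd2, Kcnd3, Kcna4, Kcng2, Kcne3 and Kcnj4 in each library (points) by group, with the group mean ± SD beside them (n = 3). Exercised and sedentary libraries overlap within a sex for Kcnd2, Kcnd3, Kcng2 and Kcnj4, and in males the highest exercised Kcna4 library, at 0.965 CPM, lies just under the lowest sedentary one, at 0.973.

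Genes outside the family whose products join, anchor or regulate these channels were followed in a list of 28, of which 24 were tested. None passed in the exercise comparisons, in their difference or in either sex comparison within a condition. Averaged over conditions, 1 of the 24 passed in each direction, against 5.05% of all genes in both directions together. Abcc8, a sulphonylurea receptor that pairs with Kcnj11 and in the mouse heart is known from the atria, stood at 53.6 ± 2.76 and 52.5 ± 2.13 CPM in exercised and sedentary females and 40.8 ± 3.56 and 42.6 ± 2.91 in the corresponding males (SD, n = 3 each). Its log2 difference was 0.35 ± 0.05 (edgeR adjusted p = 0.00366), and 0.36 with an adjusted p of 0.0571 in the 9 libraries. Nedd4l, a ubiquitin ligase of channel proteins, was at -0.27 ± 0.07 (edgeR adjusted p = 0.0376), a call that held in 3 of the 12 fits that left out 1 library and not in the 9 libraries (adjusted p = 0.298). Kcnj11 itself was at 119 to 154 CPM over the 12 libraries.

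Libraries of a group differed among themselves in the members too. Over the 24 members at 5 CPM or more, the median SD within groups was 0.18 on the log2 scale, against 0.12 over 10480 genes above the same floor, with no matching on level. Kcne1 had 0.48, Kcnj2 0.39 and Kcna5 0.35, above 98.6%, 97.5% and 96.4% of those genes. Kcnj2 ran from 22.2 to 42.8 CPM and Kcna5 from 24.9 to 47.6 CPM over the 12 libraries, and both ranges were covered within a single sex and condition to a large part: Kcnj2 stood at 42.8, 32.4 and 22.7 in exercised males, and Kcna5 at 37.3, 25.2 and 47.6 in exercised females. Kcnk6 and Kcnj3 varied little, at 0.11 each. Summed over all members, the level per kb ran only from 301 to 365 CPM per kb over the 12 libraries.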

How the data were processed

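The authors deposited a table of read counts per gene, before any normalization, for 12 heart libraries. Per the submitters' processing notes, Trimmomatic 0.36, STAR 2.5.2b, featureCounts of Subread 1.5.2 and GRCm38 were used. The annotation release, library kit and strand setting are unknown from these notes and the labels. Of 55401 rows, 55141 received a symbol from GENCODE M21.

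Counts were filtered with filterByExpr (16213 genes kept), scaled by TMM and fitted in edgeR 4.0.16 (R 4.3.3) as 1 group-means model over all 12 libraries, with 8 residual degrees of freedom. The 7 contrasts were tested with the robust quasi-likelihood test and Benjamini-Hochberg adjustment over all genes at 0.05. CPM use TMM library sizes. Levels per kb divide by the union of exon bases, which lowers genes with long UTRs that are not transcribed in heart. The fit was tested on simulated data. Alternatives were RLE scaling, no filter, CPM above 1 in 3 libraries, DESeq2 1.42.0, voom with sample weights (limma 3.58.1), only the groups compared, the 9 libraries, an atrial score (Myl7, Sln, Myl4) as covariate, an adjusted p of 0.1, and each library left out.

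Members, role classes and lists were chosen with earlier results of these data known. Named genes are a panel of cardiac and vessel wall channels, every called member, and the 5 of smallest p in each contrast. Some of these are not reported here. Replicate numbers follow the order of deposition and pair nothing.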

Additional observations from a re-analysis of the deposited data

How the results depend on the processing

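No paired analysis was possible because the labels give no replicate numbers shared between groups. The 3 members called for sex averaged over conditions passed in every fit that left out 1 library (3 to 4 members called), with RLE, the stricter filter, voom and the atrial covariate. They were 0 in the 9 libraries with few atrial transcripts and 5 at an adjusted p of 0.1. In sedentary hearts, 0 members were called in the 9 libraries and 1 with the atrial covariate, and leaving out 1 library gave 1 to 3. In exercised hearts DESeq2 called 1, and leaving out 1 library gave 0 to 1. No exercise comparison gave a member under any alternative. Over all genes, DESeq2 called 1, 16, 5 and 11 for exercise in females, in males, their difference and their average, and 877, 167 and 1378 for sex in sedentary, in exercised and averaged. An adjusted p of 0.1 gave 816, 41 and 1529 for sex, the 9 libraries gave 14 and 119 for sedentary and averaged, and the atrial covariate 97 and 252. For sex in exercised hearts, no filter gave 48 and only the groups compared 15. Leaving out 1 library gave 0 to 1 for exercise in females, for the difference and for the average, 68 to 462, 17 to 55 and 421 to 837 for sex in sedentary, in exercised and averaged, with the lowest counts without male sedentary 3, male exercised 3 and female exercised 1. Of 54 gene values, 51 kept their sign throughout. In females, the exercise value of Kcna4 was -0.24 in the 9 libraries, and without female exercised 1 those of Kcnd3 and Kcng2 were -0.020 and 0.024 (over all libraries left out in turn, -0.02 to 0.18 and -0.11 to 0.02). The cause was not tested.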

Other observations

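The table holds 5 rows with a Kcn symbol that were not protein-coding and belong to no comparison above. Kcnq1ot1, the long antisense RNA of the imprinted Kcnq1 locus, was at 3.83 to 6.59 CPM over the 12 libraries, and 121 of its exon bases overlap those of Kcnq1. Kcnd3os, antisense to Kcnd3, was at 0.120 to 0.767 CPM. Kcnab3os and Kcnmb4os1 had no counts, and Kcnmb4os2 had 1 count in all.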
